A study of Mus musculus with 8 samples.

Results

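The transcription factors that hold mouse embryonic stem cells in naive pluripotency were followed at the level of newly made RNA: Pou5f1, Nanog, Klf2, Klf4, Klf5, Esrrb, Tbx3, Tfcp2l1, Nr5a2 and Prdm14. They were chosen by gene symbol, with earlier results of these data known. All 10 were found among the 16940 genes of the deposited table. They passed the minimum mean for testing, as did 15818 genes in all. Nascent RNA was measured by TT-seq, in which cells take up 4-thiouridine (4sU) for a short pulse and the labelled RNA is captured, here 15 min with 400 µM 4sU. The cells were E14 mouse embryonic stem cells in serum-free medium with leukemia inhibitory factor (LIF) at 1000 U/mL, the MEK inhibitor PD0325901 at 1 µM and the GSK3 inhibitor CHIR99021 at 3 µM. Every group carried CTCF AID, a fusion of the insulator protein CTCF with an auxin-inducible degron, which the auxin IAA targets for destruction. The 4 groups of 2 libraries each were the overexpression control line without IAA (untreated), the same line after 12 h of IAA, and lines with IAA for 12 h that overexpressed wild-type or mutated CTCF. The labels name neither the mutation, nor the promoter of the constructs, nor the number of clones, so a difference between lines cannot be told apart from a difference between clones. They do not say that replicates were separate cultures, so p-values measure only the spread between these samples, which may be technical.

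Naive stem cells keep these factors active in a network in which most members bind near each other's genes. LIF signals through STAT3 to Klf4 and Tfcp2l1, GSK3 inhibition relieves repression by Tcf7l1 of Esrrb, Tfcp2l1 and Nanog, and MEK inhibition removes a signal that drives cells toward differentiation. CTCF binds DNA at fixed sites and halts cohesin there, which sets the ends of chromatin loops and can bring enhancers to promoters or keep them apart.

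The libraries held 15671114 to 21561141 reads over the listed genes, recovered from the deposited normalized counts, so that 1 read was worth 0.836 to 1.19 normalized reads. In replicate 2 of mutated CTCF that step, 0.989, was close to 1, the recovery was not accepted by the check of units, and this library entered no count model. Replicates correlated at r = 0.995 to 0.996 and libraries of different groups at 0.983 to 0.990. Embryonic stem cell markers are the 10 factors themselves, and their summed level was 61323 to 73433 normalized reads per library. Markers of other cell types were far lower, but their sums moved with the groups. The primitive endoderm sum (5 of 8 markers listed) was 267 to 283 in untreated cells, 341 to 397 after IAA, 340 to 384 with wild-type and 285 to 288 with mutated CTCF. Its markers did not move as 1: after IAA Pdgfra (1.78, adjusted p = 7.7e-09) and Gata4 (0.64, adjusted p = 3.6e-04) rose and Gata6 fell (-0.59, adjusted p = 0.024), and between the forms Col4a1 was the 1 called, at 114 in the wild-type and 29.0 in the mutated CTCF line. The trophoblast sum, mostly Tfap2c (4 of 8 listed), was 902 to 986 with wild-type CTCF and 627 to 698 elsewhere. The mesoderm sum, mostly Kdr (2 of 7), was 93.1 to 104 in untreated cells and 124 to 153 after IAA. It was 173 to 177 with wild-type and 79.1 to 97.2 with mutated CTCF. The neural sum, mostly Nes (2 of 6), was 156 to 159 in untreated cells and 221 to 284 in the IAA groups. The fibroblast sum (1 of 8, Pdgfrb) was 155 in both control libraries with IAA and 88.0 to 139 elsewhere, and the two-cell-like sum (1 of 11, Zscan4d) was 11.8 to 15.7 with wild-type CTCF and 3.30 to 6.90 elsewhere. Their part in the results was not tested, and in bulk samples fewer cells of a type and less RNA per cell cannot be told apart.

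Promoter windows were matched for 7 of the 10 factors in the RefSeq table of GRCm38.p6, and Klf5, Tbx3 and Prdm14 had none. The windows of Tfcp2l1 and Nr5a2, the pair of factors that rose after IAA, are shown with that of Esrrb, the one matched factor that fell, and with Nanog, chosen after its match was seen because its window and that of Tfcp2l1 held the looser CTCF core. Each line gives the 250 bases before a transcription start, 5′ to 3′ on the gene's strand, with motif matches in capitals. Esrrb and Nanog each have a further window at an inner start, which is not printed.
Tfcp2l1, chr1:118627695-118627944, plus strand: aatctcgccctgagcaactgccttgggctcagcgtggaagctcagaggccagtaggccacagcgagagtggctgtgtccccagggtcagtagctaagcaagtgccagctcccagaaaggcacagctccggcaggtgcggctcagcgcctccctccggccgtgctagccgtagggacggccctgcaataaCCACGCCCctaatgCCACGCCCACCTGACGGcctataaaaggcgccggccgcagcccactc
Nr5a2, chr1:136960449-136960698, minus strand: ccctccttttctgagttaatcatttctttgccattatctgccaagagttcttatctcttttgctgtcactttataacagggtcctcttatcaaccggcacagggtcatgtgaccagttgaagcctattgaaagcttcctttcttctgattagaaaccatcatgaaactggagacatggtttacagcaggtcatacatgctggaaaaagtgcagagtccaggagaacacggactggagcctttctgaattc
Nr5a2, inner start, chr1:136953631-136953880, minus strand: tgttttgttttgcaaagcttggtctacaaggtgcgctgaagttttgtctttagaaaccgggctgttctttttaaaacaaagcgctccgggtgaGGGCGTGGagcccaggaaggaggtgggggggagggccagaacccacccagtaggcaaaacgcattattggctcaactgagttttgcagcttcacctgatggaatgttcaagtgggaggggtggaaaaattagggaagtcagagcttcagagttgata
Esrrb, chr12:86360867-86361116, plus strand: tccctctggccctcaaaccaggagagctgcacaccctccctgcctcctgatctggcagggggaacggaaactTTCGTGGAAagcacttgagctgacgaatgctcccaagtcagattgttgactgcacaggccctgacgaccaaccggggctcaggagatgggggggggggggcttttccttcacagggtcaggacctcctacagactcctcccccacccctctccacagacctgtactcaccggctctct
Nanog, chr6:122707239-122707488, plus strand: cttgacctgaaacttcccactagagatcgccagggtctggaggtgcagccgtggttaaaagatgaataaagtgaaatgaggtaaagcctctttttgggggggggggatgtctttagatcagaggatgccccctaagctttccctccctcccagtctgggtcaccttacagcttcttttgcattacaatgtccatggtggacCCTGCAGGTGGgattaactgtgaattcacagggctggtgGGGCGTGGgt

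The letters searched on both strands of the 300-base windows (250 bases before and 50 after a start) were a CTCF core, found in 2.43% of 32851 windows and in 0 of the 7 factors, and a looser form of that core, found in 9.33% of windows. The looser form was matched as CCGTCAGGTGG on the opposite strand, 41 bases before the start of Tfcp2l1, and as CCTGCAGGTGG in Nanog, 49 bases before the start shown and 125 bases before its inner start. In Tfcp2l1 it overlapped the nearer of a pair of matches to the Klf core GGGNGTGG. That Klf core occurred in 17.6% of all windows and in those of Nanog, Nr5a2, Pou5f1 and Tfcp2l1. The STAT core TTCNNNGAA, in 8.30% of windows, was matched in Esrrb, 178 bases before the start. The octamer ATGCAAAT (1.74% of windows), the Esrrb core TCAAGGTCA (0.423%) and the TCF core ACATCAAAG (0.359%) had 0 matches in these factors. A match describes letters, and binding was not measured here.

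Levels of different genes were compared per length, and because the counted feature is not given in the sources used here, both lengths are given. Per kb of annotated exon, Nr5a2 (2691 normalized reads per kb, mean of 8 libraries), Esrrb (2556) and Nanog (2552) stood highest with overlapping library ranges, followed by Tfcp2l1 (1838) and Klf5 (823). Klf2 (592), Klf4 (591), Tbx3 (573) and Pou5f1 (539) overlapped each with the next, and Prdm14 (332) was lowest. Per kb of gene body the order changed: Nanog led alone (801), while Nr5a2 (135) and Esrrb (96.3), both long genes, fell to the places just above Prdm14 (62.1). Between them Klf2 (417), Klf4 (338), Tfcp2l1 (303), Tbx3 (270), Klf5 (262) and Pou5f1 (255) overlapped each with the next. On either length every factor lay in the upper part of all genes, from the top 0.563% for Nr5a2 to the top 19.6% for Prdm14 per kb of exon, and from 0.557% for Nanog to 15.9% for Prdm14 per kb of gene body.

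After IAA, 6 of the 10 factors changed in the control line, 2 higher and 4 lower, where 37.7% of all tested genes passed the threshold. Klf5, Prdm14, Tbx3 and Esrrb fell, Tfcp2l1 and Nr5a2 rose, and Pou5f1, Nanog, Klf2 and Klf4 did not pass the test. With wild-type CTCF under IAA, 7 factors were higher and 0 lower than in the control line under IAA, against 31.6% of all genes in either direction and 21.5% higher. With mutated CTCF, 6 were higher and 0 lower, against 34.3% of all genes in either direction and 22% higher. Both of these comparisons share the control libraries with IAA with each other and with the IAA effect. All 10 factors had a mean above 50. Of 11860 genes at or above that level, 5350 passed after IAA, 4704 with wild-type and 5104 with mutated CTCF. The median log2 fold change of the factors was -0.01 after IAA, 0.16 with wild-type and 0.16 with mutated CTCF, beside -0.00, 0.06 and 0.06 over all tested genes. Changes are limma estimates on the log2(normalized count + 1) scale, with p-values adjusted by Benjamini-Hochberg over all tested genes and a threshold of 0.05. The calls lean on limma's mean-variance trend, which lowers the spread assumed for abundant genes: without it 25 of the 43 calls over the 6 comparisons were lost. Klf5, Tfcp2l1 and Nr5a2 then still passed after IAA, Nanog with wild-type CTCF, and Klf4, Klf5 and Esrrb with mutated CTCF. Of all 15818 tested genes, 3946 then passed after IAA, 2379 with wild-type and 3228 with mutated CTCF.

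**Figure D1:**
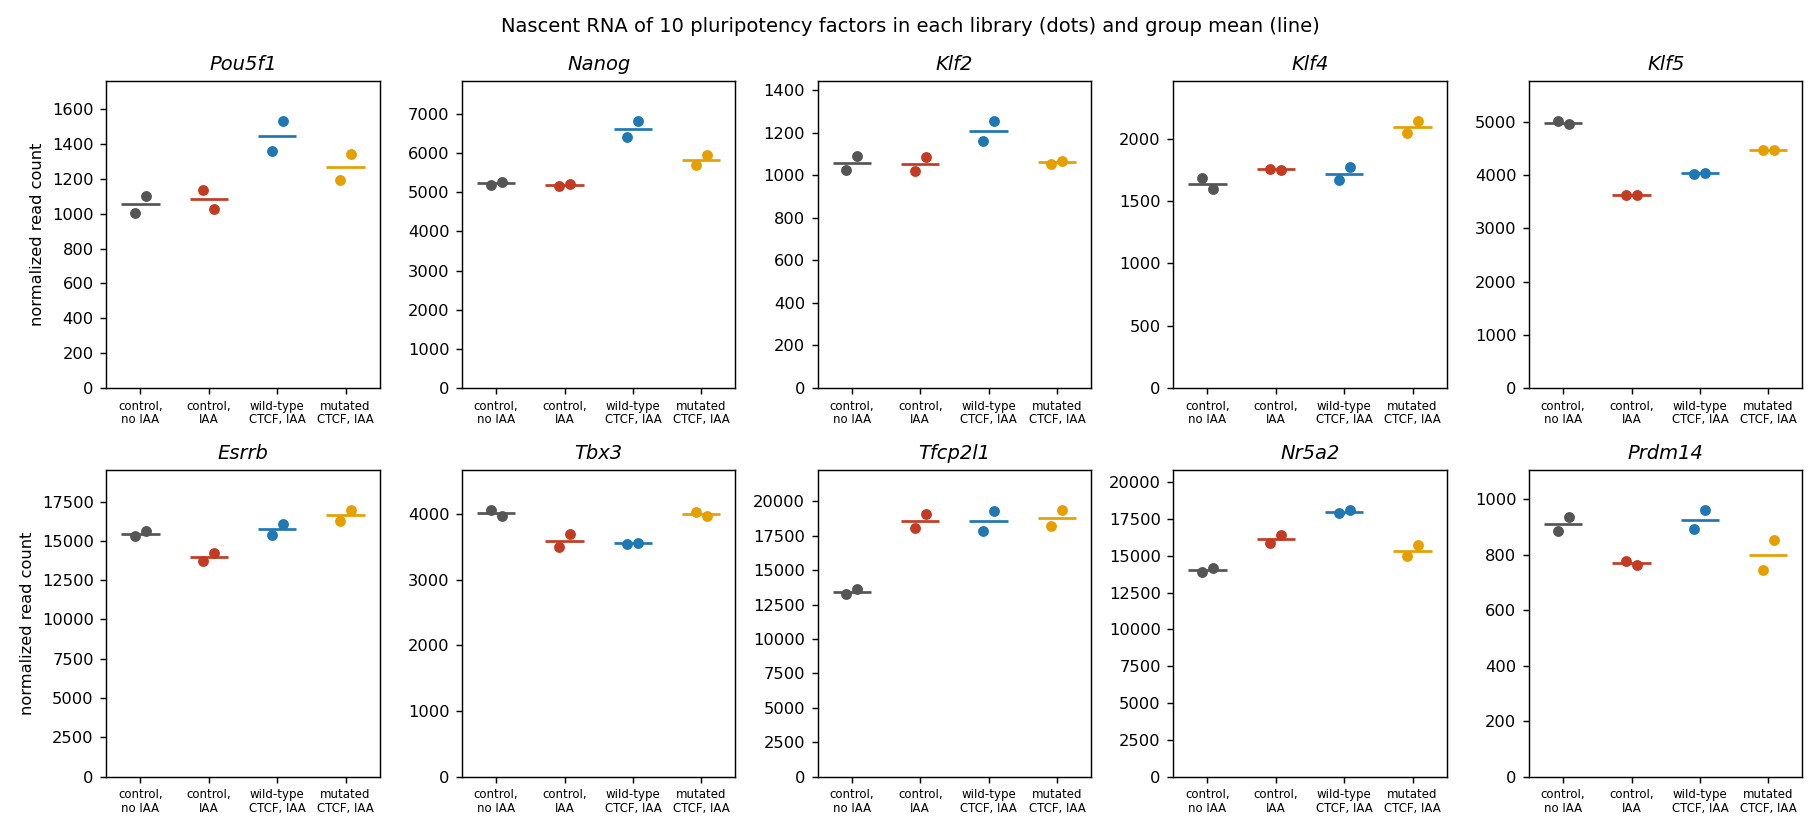
Normalized read counts of each of the 10 factors in the 8 libraries, by group, 1 panel per factor; points are libraries and bars are group means. The lower libraries of Klf5 after IAA (3632 and 3635) and the raised libraries of Tfcp2l1 in all IAA groups (17837 to 19389) stand apart from the untreated ones.

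Pou5f1 (ENSMUSG00000024406.16, chr17:35506018-35510772, plus strand of GRCm38), which encodes the POU factor OCT4 at the core of the network, had 1005 and 1102 normalized reads in untreated cells and 1136 and 1028 after IAA. With wild-type CTCF it had 1360 and 1532, and with mutated CTCF 1191 and 1343. Both CTCF lines lay above all 4 control libraries, while the control groups overlapped. The log2 difference from the control under IAA was 0.42 ± 0.06 (SE) with wild-type CTCF (limma, adjusted p = 1.9e-06) and 0.23 ± 0.06 with mutated CTCF (adjusted p = 0.0042). The latter was 0.15 (adjusted p = 0.14) without replicate 2 of the control with IAA and 0.14 (adjusted p = 0.16) without replicate 2 of mutated CTCF. Pou5f1 overlaps the antisense gene Gm19553, and whether counting used strand is not stated, so reads of the pair may be shared.

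Nanog (ENSMUSG00000012396.12, chr6:122707489-122714633, plus strand), the homeobox factor that lets stem cells renew without LIF when raised, had 5201 and 5271 normalized reads in untreated cells and 5172 and 5219 after IAA. It had 6424 and 6824 with wild-type and 5697 and 5956 with mutated CTCF. The 4 control libraries lay close together, and each CTCF line stood above them with no overlap. The IAA effect was -0.01 ± 0.04 with an interval of -0.08 to 0.06, wild-type CTCF differed from the control under IAA by 0.35 ± 0.04 (adjusted p = 3.9e-10), and mutated CTCF by 0.17 ± 0.04 (adjusted p = 3.3e-04). How reads shared with processed copies of Pou5f1 and Nanog were counted is not stated.

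Of the Krüppel-like factors, which act in part redundantly on shared targets, Klf5 (ENSMUSG00000005148.8, chr14:99298691-99315036, plus strand) showed the clearest loss. It had 5018 and 4962 normalized reads in untreated cells, 3632 and 3635 after IAA, 4027 and 4044 with wild-type CTCF and 4468 and 4477 with mutated CTCF. No library of one group reached another group's range, and the order was untreated, mutated, wild-type, control with IAA. The IAA effect was -0.46 ± 0.04 (adjusted p = 1.3e-13). Both CTCF lines stayed below the untreated level, by -0.31 ± 0.04 with wild-type (adjusted p = 4.9e-09) and -0.16 ± 0.04 with mutated CTCF (adjusted p = 5.0e-04).

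Klf4 (ENSMUSG00000003032.8, chr4:55527143-55532466, minus strand), a target of LIF signalling and a reprogramming factor, had 1681 and 1595 normalized reads in untreated cells and 1761 and 1748 after IAA. It had 1665 and 1772 with wild-type CTCF and 2042 and 2141 with mutated CTCF. The mutated CTCF libraries stood above the other 6. The difference of mutated CTCF from the control under IAA was 0.25 ± 0.05 (adjusted p = 5.8e-05), and from untreated cells 0.35 ± 0.05 (adjusted p = 1.4e-07), while the IAA effect of 0.10 ± 0.05 did not pass (adjusted p = 0.10). Klf2 (ENSMUSG00000055148.7, chr8:72319033-72321656, plus strand), which MEK inhibition protects from breakdown as a protein, had 1024 and 1090 normalized reads in untreated cells, 1018 and 1086 after IAA, 1161 and 1254 with wild-type CTCF and 1051 and 1068 with mutated CTCF. Only the wild-type CTCF libraries lay outside the range of the others, 0.20 ± 0.06 above the control under IAA (adjusted p = 0.0068); this call was lost without replicate 1 of the control with IAA (adjusted p = 0.12) or replicate 2 of wild-type CTCF (adjusted p = 0.13).

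Among the orphan nuclear receptors, which bind related DNA sites, Esrrb (ENSMUSG00000021255.17, chr12:86361117-86521628, plus strand) and Nr5a2 (ENSMUSG00000026398.14, chr1:136842571-136960448, minus strand) moved in opposite directions after IAA. Esrrb had 15289 and 15640 normalized reads in untreated cells, 13724 and 14250 after IAA, 15403 and 16054 with wild-type CTCF and 16293 and 16985 with mutated CTCF. After IAA both libraries lay below all others, by -0.14 ± 0.03 from untreated cells (adjusted p = 1.4e-04), and the wild-type CTCF range overlapped the untreated one. Compared with the control under IAA, Esrrb was higher by 0.17 ± 0.03 in the wild-type CTCF line (adjusted p = 2.5e-05) and by 0.25 ± 0.03 in the mutated one (adjusted p = 1.1e-08). Above the untreated level, mutated CTCF gave 0.11 ± 0.03 (adjusted p = 0.0045), a call lost without replicate 2 of mutated CTCF (adjusted p = 0.16), under equal library totals (adjusted p = 0.47) and under median-of-ratios rescaling (adjusted p = 0.075).

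Nr5a2 had 13899 and 14156 normalized reads in untreated cells, 15847 and 16391 after IAA, 17877 and 18125 with wild-type CTCF and 14981 and 15698 with mutated CTCF. The 4 groups did not overlap, and the wild-type CTCF libraries lay farthest from the untreated ones. The IAA effect was 0.20 ± 0.03 (adjusted p = 4.1e-07), and wild-type CTCF was a further 0.16 ± 0.03 above the control under IAA (adjusted p = 4.1e-05). Mutated CTCF differed from that control by -0.07 ± 0.03 (adjusted p = 0.052), a difference that passed under equal library totals (-0.10, adjusted p = 4.2e-04) and under median-of-ratios rescaling (-0.12, adjusted p = 2.2e-04). It differed from untreated cells by 0.13 ± 0.03 (adjusted p = 4.4e-04); the latter call was lost without replicate 2 of mutated CTCF (adjusted p = 0.060) and under equal library totals (adjusted p = 0.11).

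Tfcp2l1 (ENSMUSG00000026380.10, chr1:118627945-118685168, plus strand), a grainyhead-like factor downstream of LIF and GSK3 inhibition, had 13254 and 13623 normalized reads in untreated cells and 18050 and 19112 after IAA. It had 17837 and 19303 with wild-type and 18223 and 19389 with mutated CTCF, so the 3 IAA groups overlapped and all lay above the untreated cells. The IAA effect was 0.47 ± 0.03 (adjusted p = 5.2e-15). The differences from the control under IAA were -0.00 with wild-type CTCF (95% interval -0.07 to 0.07) and 0.02 with mutated CTCF (-0.05 to 0.08), neither past the threshold.

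Tbx3 (ENSMUSG00000018604.18, chr5:119670669-119684724, plus strand), a T-box factor that can sustain self-renewal, had 4068 and 3980 normalized reads in untreated cells, 3496 and 3698 after IAA, 3549 and 3565 with wild-type CTCF and 4033 and 3978 with mutated CTCF. The mutated CTCF libraries overlapped the untreated ones, and the wild-type CTCF libraries lay within the range of the control with IAA. The IAA effect was -0.16 ± 0.04 (adjusted p = 7.6e-04; 0.0501 without replicate 1 of the control with IAA), and mutated CTCF was 0.16 ± 0.04 above the control under IAA (adjusted p = 0.0014; 0.071 without that replicate). Under equal totals mutated CTCF lay below untreated cells (-0.090, adjusted p = 0.034). Tbx3 overlaps the antisense gene Tbx3os1, with the same limit on strand as for Pou5f1.

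Prdm14 (ENSMUSG00000042414.7, chr1:13113457-13127163, minus strand), a PR-domain repressor of signalling and DNA methylation genes, had 883 and 935 normalized reads in untreated cells, 778 and 763 after IAA, 891 and 962 with wild-type CTCF and 746 and 852 with mutated CTCF. The control and mutated CTCF libraries with IAA lay below the untreated and wild-type CTCF libraries. The IAA effect was -0.24 ± 0.06 (adjusted p = 0.0030; 0.084 without replicate 2 of the untreated cells), and wild-type CTCF was 0.26 ± 0.06 above the control under IAA (adjusted p = 0.0016).

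**Figure D2:**
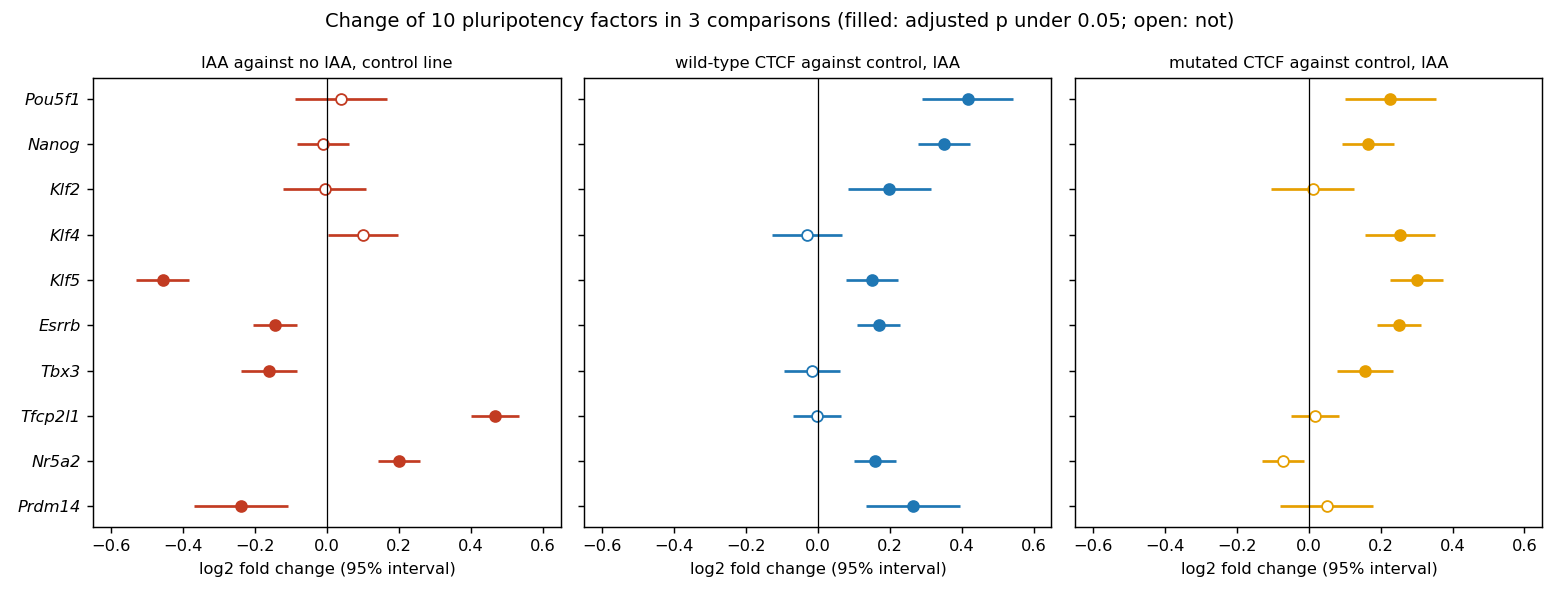
log2 fold change of each factor on the log2(normalized count + 1) scale with its 95% interval, for IAA against untreated cells and for each CTCF line against IAA-treated control cells; filled points passed an adjusted p of 0.05. Klf5 (-0.46) and Tfcp2l1 (0.47) lie at the ends of the IAA comparison.

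The 2 CTCF forms were also set against each other, a difference of group means into which neither control group enters, although the control libraries add to the shared estimate of the spread. Here 9 of the 10 factors differed, 4 higher and 5 lower with mutated than with wild-type CTCF, where 34.7% of all genes passed. Of 11860 genes with a mean of at least 50, a level that all 10 factors exceeded, 4821 passed. Klf4 was higher by 0.28 ± 0.05 (adjusted p = 1.1e-05), Tbx3 by 0.17 ± 0.04 (adjusted p = 5.1e-04), Klf5 by 0.15 ± 0.04 (adjusted p = 0.0012) and Esrrb by 0.08 ± 0.03 (adjusted p = 0.031). Nr5a2 was lower by -0.23 ± 0.03 (adjusted p = 3.3e-08), Prdm14 by -0.22 ± 0.06 (adjusted p = 0.0082), Pou5f1 by -0.19 ± 0.06 (adjusted p = 0.016), Klf2 by -0.19 ± 0.06 (adjusted p = 0.0091) and Nanog by -0.18 ± 0.04 (adjusted p = 7.8e-05). In each of the 9 the libraries of both forms did not overlap. For Tfcp2l1 the difference was 0.02 with a 95% interval of -0.05 to 0.09.

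Single libraries decided several of these differences. The Esrrb call was lost without replicate 2 of mutated CTCF (adjusted p = 0.36) or replicate 1 of wild-type CTCF (adjusted p = 0.31). The Pou5f1 call was lost without replicate 1 of mutated CTCF (-0.10, adjusted p = 0.31) or replicate 2 of wild-type CTCF (-0.10, adjusted p = 0.27). The same libraries, left out in turn, ended the calls of Klf2 (adjusted p = 0.058 and 0.15) and Prdm14 (adjusted p = 0.26 and 0.10). Without the mean-variance trend, Klf4 and Nr5a2 were the 2 factors still past the threshold, where 3263 of 15818 genes passed.

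**Figure D3:**
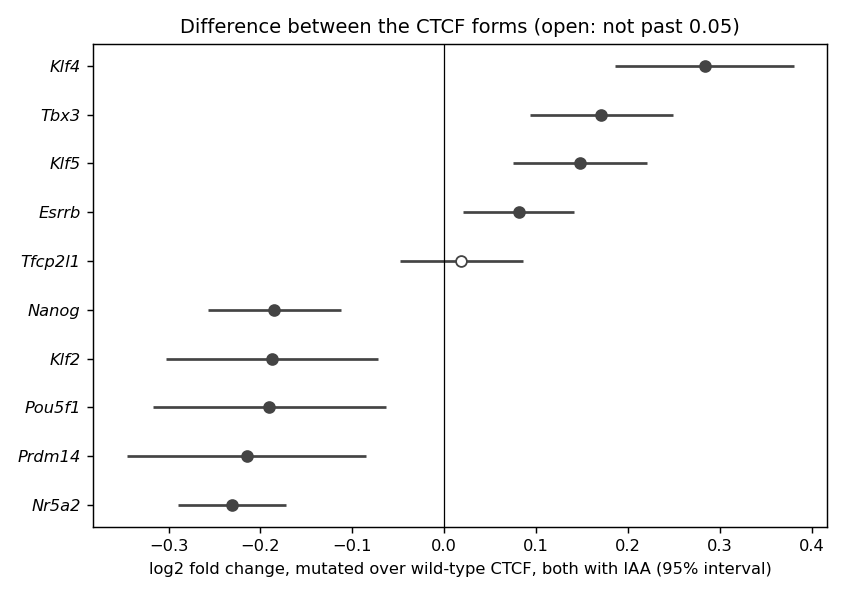
log2 difference of mutated minus wild-type CTCF, both with IAA, for each factor, with its 95% interval. Klf4, Tbx3, Klf5 and Esrrb lie above 0, Tfcp2l1 spans 0, and the other 5 factors lie below.

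How far each form went back to the untreated level was described for the 6 factors that changed after IAA, as a percent of the way from the control with IAA (0%) to untreated cells (100%) on log2 group means. The control with IAA enters both differences, so these percents carry no test. The SD over 2 replicates given with them covers the CTCF line alone, not the controls or the scale. Klf5 went 33.1% ± 0.95 of the way with wild-type (20.9% under median-of-ratios rescaling) and 65.5% ± 0.49 with mutated CTCF. Tbx3 stood at -9.56% ± 2.7 with wild-type, but at -45.9% without replicate 1 and 12.3% without replicate 2 of the control with IAA, and at -44.7% under median-of-ratios rescaling. With mutated CTCF Tbx3 stood at 95.9% ± 8.6, and at 58.0% under equal totals. Prdm14 went 111% ± 33 of the way in the wild-type and 20.7% ± 57 in the mutated CTCF line, the latter with replicates on both sides of 0.

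Esrrb stood at 117% ± 29 in the wild-type CTCF line, with replicates on both sides of the untreated level, and at 70.5% under equal totals. Its difference there from untreated cells was 0.02 ± 0.03 (adjusted p = 0.54), and -0.058 under equal totals (adjusted p = 0.032). In the mutated CTCF line Esrrb stood at 173% ± 29, and at 111% under equal totals. Nr5a2 lay farther from the untreated level with wild-type CTCF, at -79.6% ± 7.0 (-51.0% under median-of-ratios rescaling). With mutated CTCF it was at 35.8% ± 24, with replicates at 19.0% and 52.6%, and at 69.5% under equal totals. Tfcp2l1 was at 0.299% ± 17 and -3.70% ± 14. Against the untreated level itself, 7 factors differed with wild-type CTCF (5 higher, 2 lower), where 43.2% of all genes passed and 27.6% were higher. With mutated CTCF 8 differed (6 higher, 2 lower), where 37.8% of all genes passed and 24% were higher. Of 11860 genes with a mean of at least 50, 6120 passed with wild-type and 5424 with mutated CTCF. Under equal totals both comparisons gave 4 higher and 3 lower factors, beside 20.4% and 24.4% of all genes with wild-type and 16.4% and 21.6% with mutated CTCF. Without replicate 2 of mutated CTCF, which leaves a single library in that group, mutated CTCF against untreated cells gave fewer higher factors, and fewer higher calls over all genes. Pou5f1 and Nanog, which did not pass the test after IAA, were above untreated cells with wild-type CTCF by 0.46 ± 0.06 (adjusted p = 1.5e-07) and 0.34 ± 0.04 (adjusted p = 4.0e-10).

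**Figure D4:**
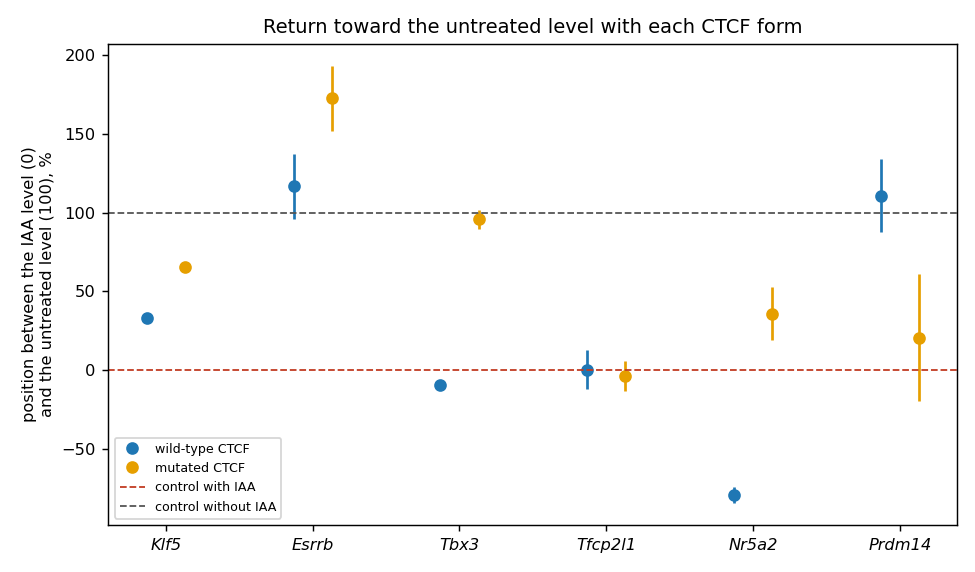
Percent of the way from the control with IAA (0) to untreated cells (100), for the 6 factors that changed after IAA. Each CTCF line is shown, with points for group values and vertical lines from the lower to the higher replicate. The Tbx3 group values are 95.9 with mutated and -9.56 with wild-type CTCF, and those of Tfcp2l1 are near 0 with both.

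Over the 8 libraries, which share groups and scaling, the factors fell into no single pattern. Of 45 pairs the median Pearson r of log2 values was 0.315, and 16 were below 0. Pou5f1 and Nanog were most alike (r = 0.952), then Nanog and Klf2 (0.855) and Klf5 and Tbx3 (0.850), while Tbx3 and Nr5a2 were most opposed (-0.814) and Klf5 and Tfcp2l1 also ran apart (-0.746). Among 11845 genes with a mean of at least 50, the nearest pattern to Pou5f1 was Asna1 (r = 0.996), to Nanog Lamp1 (0.989), to Klf2 Sf3a3 (0.989), to Klf4 A4galt (0.986) and to Klf5 Klhl7 (0.997). For Esrrb it was Yipf4 (0.985), for Tbx3 Paox (0.988), for Tfcp2l1 Ago2 (0.992) and for Prdm14 Atxn2 (0.982). With 8 points and this many genes such values describe these libraries only.

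**Figure D5:**
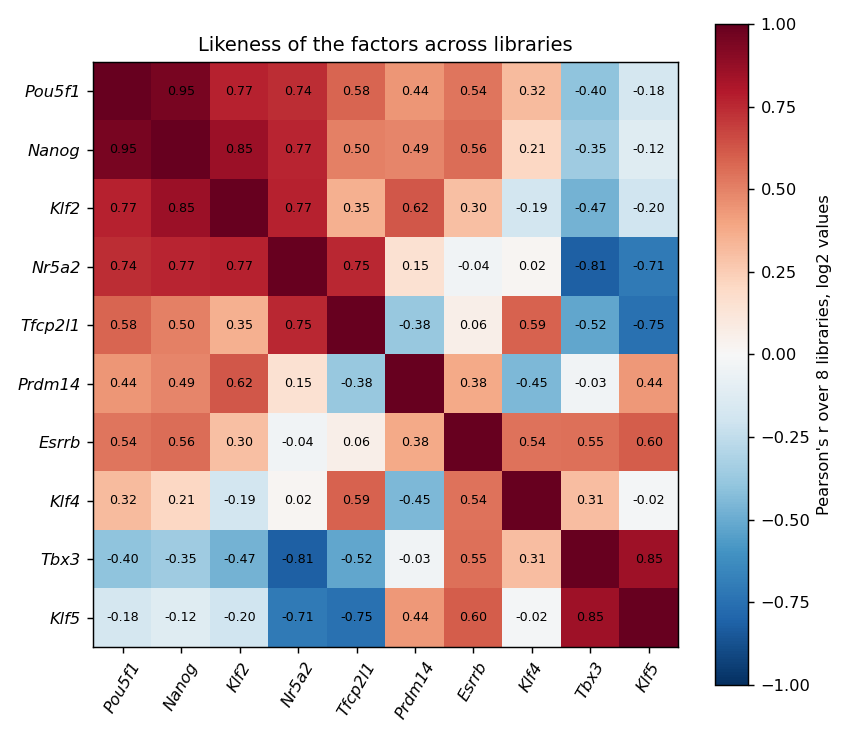
Pearson r between the 10 factors over the 8 libraries, on log2(normalized count + 1). The highest value is 0.952 (Pou5f1 and Nanog) and the lowest -0.814 (Tbx3 and Nr5a2).

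The signalling inputs to the network were followed in gene lists chosen by function, with earlier results of these data known. Their counts are a description and no independent test, and stand beside the shares of all tested genes. After IAA 19.4% rose and 18.4% fell, and with wild-type CTCF against the control under IAA 21.5% were higher and 10% lower. With mutated CTCF against that control the shares were 22% and 12.4%. Between the forms 16.3% were higher and 18.4% lower with mutated CTCF. Of 14 genes of the GSK3 and β-catenin input, 10 rose and 0 fell after IAA, with a median log2 fold change of 0.24 beside -0.00 over all genes, and 9 rose and 0 fell under equal totals (16.2% and 25.9% of all genes). Cdx1, a β-catenin target, went from 244 to 731 normalized reads (1.58 ± 0.08, adjusted p = 6.2e-19) and Nkd1, a feedback inhibitor of Wnt signalling, from 77.2 to 162 (1.06 ± 0.15, adjusted p = 1.4e-07). Between the forms 3 of the 14 were higher and 5 lower with mutated CTCF. Tcf7 (0.30 ± 0.07, adjusted p = 3.9e-04) and the receptor gene Lgr4 (0.26 ± 0.03, adjusted p = 1.7e-07) were higher. Cdx1 was 257 with mutated and 595 with wild-type CTCF (-1.21 ± 0.08, adjusted p = 6.0e-15), and Lef1, a TCF-family factor, 145 and 354 (-1.28 ± 0.10, adjusted p = 2.1e-13).

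Of 13 genes of the LIF and STAT3 input, 4 rose and 3 fell after IAA (19.4% and 18.4% of all genes), among them the kinases Jak1 (0.53 ± 0.04, adjusted p = 4.6e-13) and Jak2 (-0.64 ± 0.06, adjusted p = 1.4e-10). With wild-type CTCF 7 were higher and 1 lower than in the control under IAA (21.5% and 10% of all genes), led by Lif itself (0.79 ± 0.20, adjusted p = 0.0018). With mutated CTCF 3 were higher and 1 lower (22% and 12.4% of all genes). Directly compared, 1 was higher and 5 were lower with mutated than with wild-type CTCF (16.3% and 18.4% of all genes). Of 18 tested genes of the MEK and ERK input, 4 rose and 5 fell after IAA, a count of risers near the 19.4% of all genes, and the feedback phosphatase Dusp6 fell from 130 normalized reads (-1.10 ± 0.17, adjusted p = 1.9e-06). Under equal totals 9 of these 18 fell, as did 25.9% of all genes.

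Of 25 other factors of the stem cell network, 7 rose and 9 fell after IAA (19.4% and 18.4% of all genes), from Dppa3 (27.7 to 107 normalized reads, 1.96 ± 0.22, adjusted p = 1.9e-09) to Utf1 (47.9 to 9.62, -2.24 ± 0.33, adjusted p = 6.1e-07). Against the control under IAA, 15 were higher and 1 lower with wild-type CTCF (21.5% and 10% of all genes), and 13 were higher and 7 lower with mutated CTCF (22% and 12.4%). Between the forms 3 were higher and 10 lower with mutated CTCF (16.3% and 18.4% of all genes), where Rarg, a retinoic acid receptor, was lower by -1.03 ± 0.11 (adjusted p = 1.3e-09). Of 11 tested Klf genes beyond the 3 above, 2 rose and 5 fell after IAA (19.4% and 18.4% of all genes), and 8 fell under equal totals (25.9% of all genes). Klf8 rose by 0.36 ± 0.04 (adjusted p = 4.5e-10) and Klf16 changed by -0.64 ± 0.12 (adjusted p = 3.6e-05). With mutated CTCF 8 of the 11 were higher and 1 lower than in the control under IAA (22% and 12.4% of all genes). Of 9 tested genes of formative and primed cells, 2 rose and 5 fell after IAA (19.4% and 18.4% of all genes), with Foxd3 at -1.23 ± 0.19 (adjusted p = 1.5e-06). Between the forms 0 were higher and 4 lower with mutated CTCF (16.3% and 18.4% of all genes).

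Of 50 tested genes that start within 250 kb of a factor's start, 24 rose and 3 fell after IAA. This was 54.0% against 37.7% of all genes, with a median of 0.24. Klf2 had 14 of these genes (7 rose, 1 fell) and Nanog 12 (8 rose, 1 fell), more than any other factor. Neither Klf2 nor Nanog passed the test after IAA. Under equal totals 21 of the 50 rose and 4 fell (16.2% and 25.9% of all genes). Against the control under IAA, 5 were higher and 12 lower with wild-type CTCF (34.0% against 31.6% of all genes), and 4 were higher and 5 lower with mutated CTCF (18.0% against 34.3%). Under median-of-ratios rescaling 4 were higher and 15 lower with wild-type CTCF (16.1% and 15.9% of all genes). With mutated CTCF 3 were then higher and 8 lower (17.1% and 17.0% of all genes). Slco5a1, a transporter gene 134.5 kb from Prdm14, rose after IAA from 772 to 1979 normalized reads (1.36 ± 0.05, adjusted p = 9.4e-24) while Prdm14 fell. Dppa3, within this distance of Nanog, rose while Nanog did not pass the test. Apobec1, also near Nanog, was at 735 normalized reads with mutated and 443 with wild-type CTCF (0.73 ± 0.07, adjusted p = 1.4e-11), where Nanog was lower with mutated CTCF. Near Klf2, Gm10282 (0.84 ± 0.15, adjusted p = 1.9e-05) and Ap1m1 (0.59 ± 0.10, adjusted p = 9.0e-06) rose after IAA, while Klf2 changed by -0.01 ± 0.06. Nr5a2 had 0 tested genes within that distance.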

How the data were processed

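The authors deposited 1 table of normalized counts for 16940 genes in 8 libraries, a signal in which each value is a read count divided by a factor per library. In the deposited values 100% were whole multiples of the library's step within 0.01 reads. Per the submitters' processing notes, Trim Galore, STAR, featureCounts, DESeq2 and mm10 were used; versions, roles, annotation and strand setting are not given in the sources used here. Positions came from GENCODE M21 (16917 IDs matched). The members and lists were chosen with earlier results of these data known.

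Genes with a mean of at least 10 (15818) were fitted with limma 3.58.1 in R 4.3.3 on log2(value + 1), with 1 coefficient per group over all 8 libraries (4 residual degrees of freedom), eBayes with a mean-variance trend, and Benjamini-Hochberg adjustment. The script was tested on simulated data; the changes it missed there lay among genes of low level, and the criterion for passing was then set on the more abundant genes. Alternatives were the pseudocount, the filter, the scale, the trend, the groups fitted, a replicate block, leaving out each library, and edgeR 4.0.16 on recovered reads. Replicate numbers did not pair the samples (mean correlation of deviations 0.0037). All 10 factors were named; of other lists, at most the 2 highest and 2 lowest genes past the threshold, the nearest pattern per factor (given for 9 of them), and neighbours within 250 kb changed by at least 0.5. Some genes are not reported here.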

Additional observations from a re-analysis of the deposited data

Results flagged for a closer look

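The difference between the lines with either CTCF form was itself tested (limma, 2 libraries a group). It passed the threshold for 9 factors, beside 34.7% of all genes and 4821 of 11860 genes with a mean of at least 50. Without the mean-variance trend it passed for 2, beside 3263 of 15818 genes. On the log2 scale, mutated minus wild-type, it was -0.1904 for Pou5f1, -0.1847 for Nanog, -0.1875 for Klf2, 0.2834 for Klf4, 0.1484 for Klf5, 0.08117 for Esrrb, 0.1712 for Tbx3, -0.2312 for Nr5a2 and -0.215 for Prdm14. Marker sums of other cell types moved along the same contrast: trophoblast was 902 to 986 normalized reads with wild-type and 627 to 668 with mutated CTCF, mesoderm 173 to 177 and 79.1 to 97.2, primitive endoderm 340 to 384 and 285 to 288, where Col4a1 was the 1 of 5 tested markers called and Gata4 lay the other way (113 and 137, not called). The neural sum was 223 to 263 and 274 to 284, the fibroblast sum 97.9 to 139 and 88.0 to 90.9, and the two-cell-like sum 11.8 to 15.7 and 3.95 to 5.22. Their part in these differences was not tested.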

How the results depend on the processing

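Of 60 differences (10 factors in 6 comparisons), 32 kept their side of the threshold under all alternatives run, and 28 changed in some. No call changed sign, but differences not called could, such as Pou5f1 after IAA (-0.03 to 0.11). Esrrb with wild-type CTCF against untreated cells, 0.02 and not called, was -0.058 (adjusted p = 0.032) with equal totals. Without the mean-variance trend the genes called were 3946 after IAA, 2379 for wild-type and 3228 for mutated CTCF against the control under IAA, 3263 between the forms and 3869 for mutated CTCF against untreated cells, and the factors called were 3, 1, 3, 2 and 3. Leaving out 1 library gave 3274 to 5079 genes for wild-type CTCF against the control under IAA (lowest without replicate 2 of wild-type CTCF) and 5 to 8 factors for mutated CTCF against untreated cells (lowest without replicate 2 of mutated CTCF). With median-of-ratios rescaling, higher calls went from 68.3% to 50.3% of calls for wild-type and from 63.9% to 50.2% for mutated CTCF against the control under IAA, and with equal totals from 51.3% to 38.5% after IAA. Against untreated cells they went from 64.0% to 45.5% with wild-type and from 63.6% to 43.1% with mutated CTCF under equal totals (51.8% and 52.1% with median-of-ratios). With the replicate block 1 call changed, Nr5a2 with mutated CTCF against the control under IAA (-0.07, adjusted p = 0.0096), and counts went to 5532 to 7237. By their labels, samples of the same replicate share only a number. The edgeR fit on recovered reads changed 0 calls of factors in 3 comparisons (6070, 4934 and 7205 genes called) and was not run for those with mutated CTCF, since reads of its replicate 2 were not taken as recovered. Of 144 alternative values of the way back, 29 moved by more than the replicate spread, and 1 reversed by more than that spread. This was Tbx3 with wild-type CTCF, which ran from -45.9% without replicate 1 to 12.3% without replicate 2 of the control with IAA. Prdm14 with mutated CTCF (-19.6% to 60.9%) and Tfcp2l1 with wild-type (-11.9% to 12.5%) and mutated CTCF (-13.8% to 7.26%) also crossed 0, within their replicate SD. The causes were not tested. Precision was lower for the factors with fewer reads, with SEs of 0.065 for Prdm14, 0.063 for Pou5f1 and 0.057 for Klf2 against 0.029 for Nr5a2 and 0.030 for Esrrb.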
